A study of Homo sapiens with 6 samples.

Results

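Of 52 listed genes of the PI3K, AKT, mTORC1 and AMPK pathway, 49 were measured in A549 cells carrying a hairpin against TIGD1 or a control hairpin, among 18244 genes in all. The genes were chosen by their known place in the pathway and matched by symbol to the probe sets of the array. They and the lists below were chosen with earlier results of these data known. Counts set beside the share of all genes are thus descriptive only. PIK3CA, PIK3R2 and LAMTOR1 were not analysed here. Insulin and growth factor receptors recruit class I PI3K, whose lipid product brings AKT to the membrane, where PDK1 and mTORC2 activate it. AKT inactivates the TSC complex and so frees RHEB to activate mTORC1, while amino acids act through the Rag GTPases and Ragulator at the lysosome. AMPK, an energy sensor activated by LKB1, restrains mTORC1 by acting on TSC2 and raptor. These steps act mainly on proteins and their phosphorylation, which an array of transcripts does not measure.

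A549 is an established human line from a lung adenocarcinoma. It is known to carry an inactivating mutation of STK11, the gene of LKB1, so that the upstream kinase of AMPK is not functional in these cells. Cells of both groups received a lentivirus with a short hairpin RNA. The group shControl (3 arrays) had the control hairpin, called shNC in the protocol, and the group shTIGD1 (3 arrays) a single hairpin against TIGD1, a domesticated transposase gene of the pogo family. The sources used here do not say whether clones or pools were used, how long after infection RNA was taken, or whether the arrays of a group stand for separate cultures. All p-values below thus reflect only how these arrays differ among themselves, which may be technical. In bulk RNA, fewer cells of a kind and less RNA per cell cannot be told apart. The target sequences are shown because they are the only stated difference between the groups.
shTIGD1: ctgctaacacaacatccat
shNC: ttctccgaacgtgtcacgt

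TIGD1 did not pass as lower. It was at 6.96, 6.93 and 6.85 in shControl and 6.88, 6.84 and 6.86 in shTIGD1, with a log2 difference of -0.06 (95% interval -0.16 to 0.04, limma adjusted p = 0.389). It passed as higher with hybridization control scaling (0.16, adjusted p = 0.0181) and with poly-A control scaling (0.27, adjusted p = 0.0121), both described below. The values overlapped, so the groups are named by their labels and every direction below is that of the arrays labelled shTIGD1 against those labelled shControl. Values are log2 signals, and a rise or a fall is named where the limma adjusted p over all genes was under 0.05. Where dimmer or counted probe sets are said to pass, the adjustment was over all probe sets. An adjusted p given for a second brightest probe set comes from a fit with that choice for every gene, unless stated otherwise. Of the 10 markers of A549 and airway epithelial cells, none was under 5 in both groups, and EPCAM and CDH1 rose (0.87 and 0.66). Their summed linear signal ran from 99141 to 99731 in shControl and from 100911 to 101704 in shTIGD1. Markers of immune cells summed to between 510 and 564 and to between 501 and 549.2, respectively, those of endothelial cells to between 153 and 158 and to between 140 and 153, and those of fibroblasts to between 218 and 235 and to between 201 and 214. Of these, 4 of 6 immune, 2 of 5 endothelial and 3 of 7 fibroblast genes were under 5 in both groups. Spiked controls were dimmer in shTIGD1, at 10.45 to 10.50 against 10.68 to 10.69 for hybridization controls and at 6.83 to 6.95 against 7.13 to 7.30 for poly-A controls. Levelling the arrays on them adds 0.22 or 0.32, respectively, to every difference below. The signal of the 3′ probe set minus that of the 5′ probe set, a sign of RNA integrity, was 0.37 to 0.40 against 0.31 to 0.36 for beta-actin and -0.08 to -0.04 against -0.15 to -0.12 for GAPDH, shControl first. The part of these shifts in the results was not tested.

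Transcripts of the AMPK catalytic subunits PRKAA1 and PRKAA2 and of the regulatory subunit PRKAG2 rose, while STK11 and its partner STRADA fell. PHLPP1 and PHLPP2, phosphatases that act on AKT, rose together, and AKT2 and the PI3K regulatory subunit PIK3R3 fell. At the lysosome, the Ragulator genes LAMTOR4 and LAMTOR5 rose and NPRL3, of the GATOR1 complex that restrains the Rag GTPases, fell. Most differences were small, with rises between 1.09-fold and 1.60-fold and falls between 1.11-fold and 1.40-fold. Of the 49 genes, 10 rose, where 9.81% of all genes tested did, and 8 fell, where 14.0% did. Together 36.7% passed, beside 23.8% of all genes and 31.6% of the 12925 genes with a mean of at least 5 in the higher group, a level that all 49 reached. The 3 arrays of each group did not overlap for 31 of the 49 genes (63.3%), where 42.3% of all genes and 54.0% of those of at least 5 did not overlap; 14 were higher, where 16.9% of all genes were, and 17 lower, where 25.5% were. The median difference was 0.01, beside -0.04 for all genes. The split depended on the scaling. With hybridization controls, 36 of the 49 passed as higher and 1 as lower, when 50.9% and 2.06% of all genes did, and with poly-A controls 39 and 0, when 68.2% and 0.532% did.

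**Figure D1:**
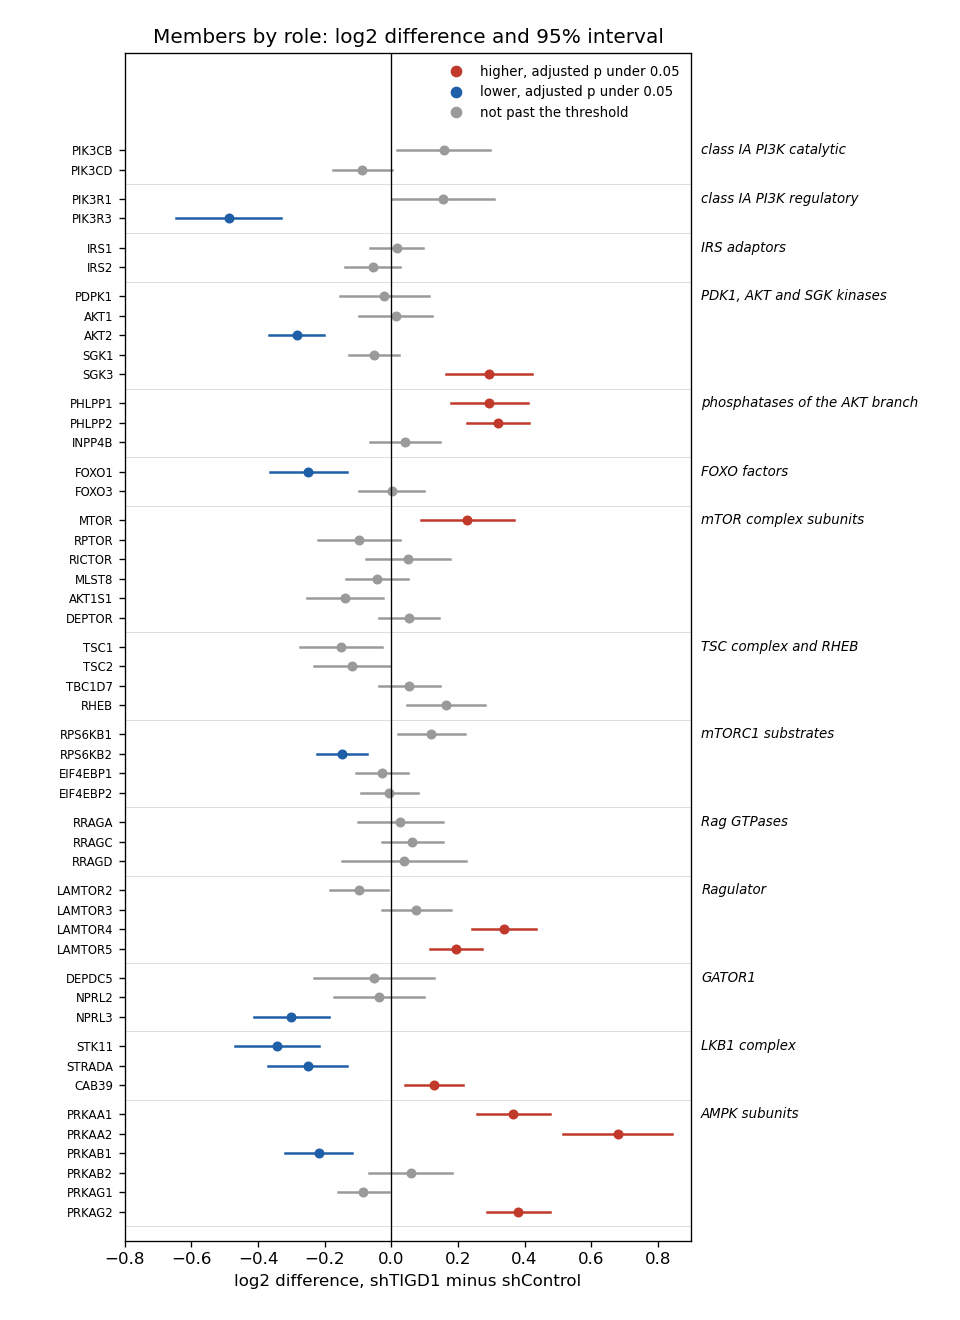
The x axis gives the log2 difference between shTIGD1 and shControl (3 arrays each) for 49 pathway genes, listed on the y axis by role. Points are limma estimates and lines their 95% intervals, which are not adjusted for multiple testing; red and blue mark the 10 rises and 8 falls past an adjusted p of 0.05, with PRKAA2 farthest to the right (0.68) and PIK3R3 farthest to the left (-0.49).

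At the top of the pathway, PIK3R3 had the largest fall of all 49 genes. It encodes p55-gamma, a short regulatory subunit of class IA PI3K. Its brightest probe set was at 7.11, 7.05 and 7.02 in shControl and 6.66, 6.62 and 6.44 in shTIGD1. Every shTIGD1 value was below every shControl value, and the log2 difference was -0.49 (SE 0.07, adjusted p = 0.00398), or -0.17 with poly-A control scaling (adjusted p = 0.132). All 5 PIK3R3 probe sets lay below 0, from -0.49 to -0.11, and 2 passed. The second brightest alone did not (-0.11, adjusted p = 0.591). PIK3R1, the gene of the main regulatory subunit p85-alpha, did not pass with its brightest probe set (0.16, adjusted p = 0.130), although 1 of its 8 probe sets passed as higher (0.38). The gap between the changes of PIK3R3 and PIK3R1 was -0.64 (exact permutation test, two-sided, p = 0.1, the smallest that 3 arrays against 3 can give; 0.136 adjusted over 15 pairs of related genes). Of the catalytic subunits, PIK3CB (0.16, adjusted p = 0.102) and PIK3CD (-0.09, adjusted p = 0.137) did not pass. A dimmer PIK3CB probe set passed as higher (0.32), and a dimmer PIK3CD probe set as lower (-0.16). The latter had means of 4.42 and 4.27, near the background controls (4.42 to 4.54), and the second brightest PIK3CD probe set was at 0.02.

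The adaptors that link the insulin receptor to PI3K stayed within a narrow band. IRS1 read 10.09, 10.13 and 10.12 in shControl and 10.12, 10.16 and 10.12 in shTIGD1, a difference of 0.02 with a 95% interval of -0.06 to 0.09. A dimmer IRS1 probe set passed as lower (-0.15). IRS2 differed by -0.06 (interval -0.14 to 0.03). Neither interval reaches a change of 1.2-fold.

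Among the kinases that PI3K activates, AKT2 fell and SGK3 rose. AKT2, the isoform best known for insulin-stimulated glucose uptake, read 10.65, 10.70 and 10.63 in shControl and 10.36, 10.38 and 10.38 in shTIGD1. The groups lay well apart, with a log2 difference of -0.28 (SE 0.03, adjusted p = 0.00284), which became -0.07 with hybridization controls and turned to 0.04 with poly-A controls, both not past the threshold. Of its 12 probe sets, 8 were past the threshold below 0, the lowest at -0.55, while 3 lay above 0 and missed it. The second brightest missed the threshold (-0.15, adjusted p = 0.0838). AKT1 showed no such difference on the same arrays, at 9.18, 9.28 and 9.24 against 9.24, 9.19 and 9.31, with an estimate of 0.01 (interval -0.10 to 0.12). A dimmer AKT1 probe set passed narrowly as higher (0.14, limma adjusted p = 0.0492 over all probe sets), but not in the fit with the second brightest probe sets. The change of AKT2 minus that of AKT1 was -0.30 (exact permutation test, two-sided, p = 0.1, 0.136 adjusted over 15 pairs). SGK3, a kinase related to AKT that is recruited to endosomes, read 7.24, 7.39 and 7.42 in shControl and 7.66, 7.63 and 7.64 in shTIGD1. It rose by 0.29 (SE 0.05, adjusted p = 0.0115) and has a single probe set of its own here. SGK1, a glucocorticoid- and serum-induced relative, differed by -0.05 (adjusted p = 0.272). PDPK1, the gene of PDK1, differed by -0.02 (adjusted p = 0.827) with its brightest of 6 probe sets, while the second brightest passed as higher (0.22).

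Both PHLPP genes rose. Their products dephosphorylate the hydrophobic motif of AKT and so act as brakes on it. PHLPP2 read 8.65, 8.68 and 8.59 in shControl and 8.97, 8.98 and 8.93 in shTIGD1, a rise of 0.32 (SE 0.04, adjusted p = 0.00299). PHLPP1 went from 6.44, 6.52 and 6.47 to 6.85, 6.75 and 6.71, a rise of 0.29 (SE 0.05, adjusted p = 0.00753). The shTIGD1 arrays were higher throughout for both genes. The remaining PHLPP2 probe sets had means between 3.87 and 4.05, near the background controls (4.42 to 4.54), and did not follow (-0.02 and 0.05). With the mean of all its probe sets, PHLPP2 therefore missed the threshold (0.12, adjusted p = 0.206), and PHLPP1 missed it with its second probe set (0.15, adjusted p = 0.253). INPP4B, a lipid phosphatase that removes a product of PI3K, did not pass with its brightest probe set (0.04, adjusted p = 0.551), but 2 of 6 probe sets passed as higher (0.21 and 0.50).

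FOXO1, a transcription factor that AKT keeps out of the nucleus, fell. It read 8.35, 8.33 and 8.21 in shControl and 8.01, 8.04 and 8.09 in shTIGD1, without overlap. The difference of -0.25 (SE 0.05, adjusted p = 0.0133) became -0.03 with hybridization controls and turned to 0.07 with poly-A controls. Its second brightest probe set passed too (-0.33). The gene missed the threshold without shTIGD1 replicate 1 (-0.23, adjusted p = 0.0506) and with the mean of the 4 probe sets (-0.11, adjusted p = 0.122). FOXO3 read between 8.86 and 8.96 on all 6 arrays, with a difference of 0.00 (interval -0.10 to 0.10). Of 18 FOXO target genes, a list chosen with earlier results of these data known, 5 rose and 2 fell, where 9.81% and 14.0% of all genes did. Together 38.9% passed, beside 23.8% of all genes and 31.6% of those of at least 5, and the median was 0.04. ERBB3, a receptor that recruits PI3K, rose by 0.87 (6.96, 7.07 and 6.75 against 7.74, 7.74 and 7.90), TXNIP, an inhibitor of glucose uptake, by 0.52 and the insulin receptor gene INSR by 0.32. Of 3 ERBB3 probe sets only the brightest passed, with the others at 0.02 and 0.25. Of 5 INSR probe sets only the brightest passed, and 2 lay below 0 (-0.13 and -0.18). CITED2, a transcriptional regulator, fell by 0.30, which turned to a value of 0.02 with poly-A controls. The second CITED2 probe set was at -0.17 and did not pass. The other 3 were named after their values were seen. CDKN1B, a cell cycle inhibitor, and PDK4, an inhibitor of pyruvate dehydrogenase, were at 0.29 and 0.15, but missed the threshold in 3 and 5, respectively, of the 6 fits that left out an array (adjusted p up to 0.0797 and 0.126). Their second probe sets passed as higher, at 0.21 and 0.74 (limma adjusted p = 0.00885 and 0.00162 over all probe sets). SOD2, a mitochondrial superoxide dismutase, fell by 0.20, which turned to values of 0.01 and 0.12 under the control scalings.

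**Figure D2:**
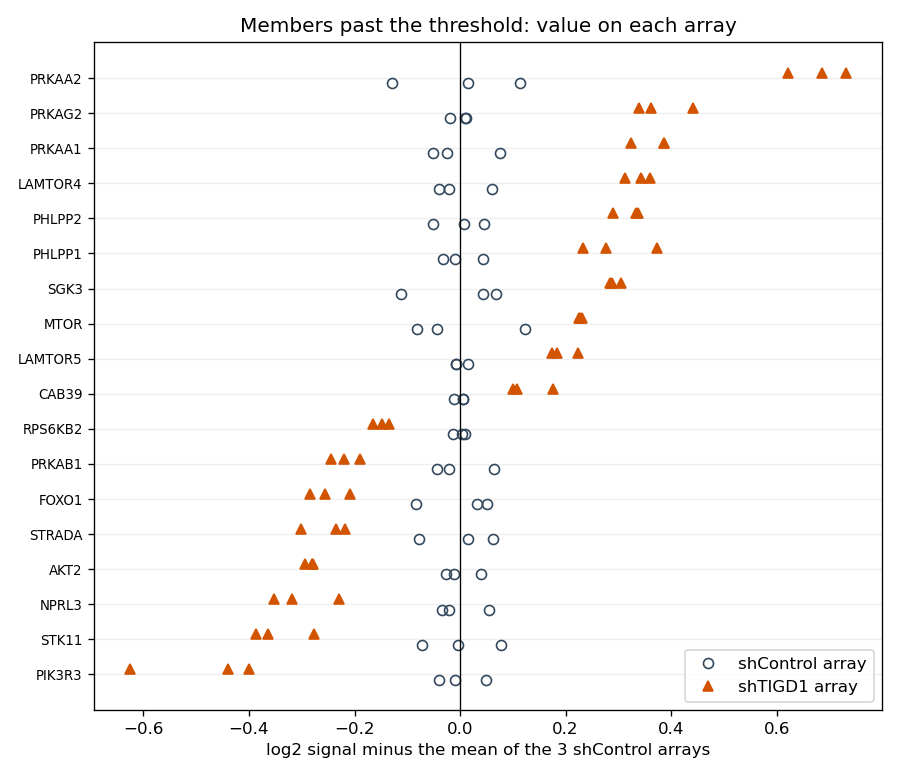
The x axis gives the log2 signal of each array minus the mean of the 3 shControl arrays, for the 18 genes past the threshold, named on the y axis. Open circles are shControl arrays and filled triangles shTIGD1 arrays; in each of the 18 rows the triangles and circles do not overlap, with RPS6KB2 and CAB39 nearest to 0.

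The subunits of the mTOR complexes differed little. MTOR, the kinase of both complexes, read 8.75, 8.79 and 8.96 in shControl and 9.06 on each of the shTIGD1 arrays. It rose by 0.23 (SE 0.06, adjusted p = 0.0334), with the third shControl array nearest to the other group. Leaving out single arrays gave 0.19 to 0.29, and MTOR missed the threshold without any array but that one (adjusted p between 0.0878 and 0.0897). Of its other probe sets, the second was at 0.17 (adjusted p = 0.0557 over all probe sets) and the third, near background, at -0.04. AKT1S1, the gene of the mTORC1 inhibitor PRAS40, missed the threshold with its brightest probe set (-0.14, interval -0.25 to -0.02, adjusted p = 0.0827), while a dimmer one passed as lower (-0.18). RPTOR, which brings substrates to mTORC1, was at -0.10 (adjusted p = 0.228), and RICTOR, the scaffold of mTORC2, at 0.05 (adjusted p = 0.539). One of 6 RICTOR probe sets passed as higher (0.42). MLST8, shared by both complexes, was at -0.04 and the inhibitor DEPTOR at 0.05. Of 9 further genes of mTORC2 and of the assembly of TOR complexes, 0 rose and 3 fell, with a median of -0.13. The share of 33.3% stood beside 23.8% of all genes and near the 31.6% of those of at least 5, a level that all 9 reached. The falls were those of MAPKAP1, the gene of the mTORC2 subunit SIN1 (-0.24), the assembly factor TTI1 (-0.24) and RHEBL1, a relative of RHEB (-0.22). With poly-A controls they turned to 0.08, 0.08 and 0.10. Of the 9 MAPKAP1 probe sets, 3 passed as lower, and the values ran from -0.24 to 0.05. RHEBL1 missed the threshold in 5 of the 6 fits that left out an array (-0.26 to -0.16, adjusted p up to 0.0991), and with repeated quantile normalization or equal array medians the list had 2 falls.

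None of the 4 genes of the TSC complex and RHEB passed with its brightest probe set in limma, although 3 had an unadjusted p under 0.05. TSC1 (-0.15, adjusted p = 0.0775) and TSC2 (-0.12, adjusted p = 0.125), whose products together inactivate RHEB, were lower on every shTIGD1 array than on any shControl array. TBC1D7, the other subunit, was at 0.05. RHEB, the GTPase that activates mTORC1, read 10.99, 11.03 and 11.02 against 11.15, 11.27 and 11.12 and came close to the threshold (0.16, adjusted p = 0.0543). It passed in 6 of 16 alternative settings other than the control scalings, and was at 0.38 and 0.48 with hybridization and poly-A controls. Another 2 of its 4 probe sets passed as higher (0.27 and 0.47).

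Of the direct substrates of mTORC1, RPS6KB2 fell and RPS6KB1 leaned the other way. RPS6KB2, which encodes the S6 kinase S6K2, read 9.21, 9.21 and 9.19 in shControl and 9.07, 9.04 and 9.05 in shTIGD1. The difference was -0.15 (SE 0.03, adjusted p = 0.0177), with little spread in either group, and it turned to 0.07 with hybridization and 0.17 with poly-A controls. Leaving out arrays gave -0.16 to -0.14, and the adjusted p passed 0.05 in all cases but that without shControl replicate 3 (0.0515 to 0.0578 in the others). All 4 RPS6KB2 probe sets were below 0 and 2 passed, but not the second brightest (-0.10, adjusted p = 0.272). RPS6KB1, the gene of S6K1, did not pass with its brightest probe set (0.12, adjusted p = 0.0868), while 5 of its 7 probe sets passed as higher (0.17 to 0.30) and 0 as lower. The change of RPS6KB2 minus that of RPS6KB1 was -0.27 (exact permutation test, two-sided, p = 0.1, 0.136 adjusted over 15 pairs). EIF4EBP1 and EIF4EBP2, translation inhibitors that mTORC1 phosphorylates, were at -0.03 (interval -0.11 to 0.05) and -0.01 (interval -0.09 to 0.08). Among 18 other genes listed as substrates, relatives or downstream effectors of AKT, SGK or mTORC1, 2 passed as higher and 3 as lower (median -0.03). The share of 27.8% lay between the 23.8% of all genes and the 31.6% of those of at least 5. FOXO4 rose by 0.31 and EIF4E, the cap-binding protein that 4E-BP1 holds back, by 0.23. Of 7 probe sets for each gene, 2 and 3, respectively, passed as higher and 0 as lower. EEF2K, the kinase that slows translation elongation, fell by 0.28, which turned to a value of 0.04 with poly-A controls. Its second probe set was at 0.08 and did not pass. PFKFB2, a regulator of glycolysis, was at -0.25 with its brightest probe set. Another also passed, at 0.23 (limma adjusted p = 0.0496 over all probe sets), so no direction is given for PFKFB2. That other probe set had means of 4.05 and 4.28, below the background controls (4.42 to 4.54). EIF4B, named after its values were seen, was at -0.11 (adjusted p = 0.0476), missed the threshold when any single array was left out (-0.11 to -0.10, adjusted p up to 0.125) and turned positive under both control scalings (0.11 and 0.21).

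At the lysosomal surface, LAMTOR4 and LAMTOR5 rose. They belong to Ragulator, the scaffold that anchors the Rag GTPases. LAMTOR4 read 10.60, 10.52 and 10.50 in shControl and 10.90, 10.85 and 10.88 in shTIGD1, a rise of 0.34 (SE 0.04, adjusted p = 0.00276). LAMTOR5 read 6.40, 6.40 and 6.43 against 6.64, 6.60 and 6.59, a rise of 0.19 (SE 0.03, adjusted p = 0.00856). Each has a single probe set, and the groups were separate for both. LAMTOR2 (-0.10, adjusted p = 0.105) and LAMTOR3 (0.07, adjusted p = 0.267) did not pass. The Rag genes RRAGA, RRAGC and RRAGD differed by 0.03, 0.06 and 0.04, and none passed with its brightest probe set (0 also at an unadjusted p under 0.05), although 1 dimmer RRAGC probe set passed as higher (0.19).

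In GATOR1, which inactivates the Rag GTPases when amino acids are short, NPRL3 fell. It read 8.71, 8.62 and 8.64 in shControl and 8.34, 8.31 and 8.43 in shTIGD1. The difference was -0.30 (SE 0.05, adjusted p = 0.00660), which became -0.08 with hybridization and turned to 0.02 with poly-A controls. All 5 NPRL3 probe sets were below 0 and 3 passed, but not the second brightest (-0.04, adjusted p = 0.666). Its partners NPRL2 (-0.04) and DEPDC5 (-0.05) did not pass, and the change of NPRL3 minus that of NPRL2 was -0.26 (exact permutation test, two-sided, p = 0.1, 0.136 adjusted over 15 pairs). Of 15 other measured genes of amino acid sensing, 1 rose and 4 fell (median -0.07). The share of 33.3% stood beside 23.8% of all genes and near the 31.6% of those of at least 5. SLC38A9, the arginine sensor in the lysosomal membrane, rose by 0.29. SESN1 and SESN2, which encode sestrins, fell by 0.58 and 0.50. FLCN, which acts on RRAGC, fell by 0.35, but missed the threshold without any 1 of 4 arrays (adjusted p up to 0.107). Its second probe set was at 0.0024 and did not pass. WDR59, of GATOR2, named after its values were seen, was at -0.17, which turned to 0.04 and 0.15 under the control scalings. Only the brightest of its 3 probe sets passed.

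The sestrins stood with other inhibitors of the pathway that stress or p53 induces. Of 9 such genes, also listed with earlier results of these data known, 5 fell and 2 rose, where 14.0% and 9.81% of all genes did (median -0.15, beside -0.04 for all genes). SESN1 read 8.48, 8.46 and 8.41 in shControl and 7.83, 7.85 and 7.92 in shTIGD1. SESN2 averaged 9.05 ± 0.05 in shControl and 8.55 ± 0.08 in shTIGD1 (SD, n = 3 per group). DDIT4, the gene of REDD1, which acts through TSC2 to restrain mTORC1, was at 12.31, 12.31 and 12.30 against 11.85, 11.88 and 11.83, a fall of 0.46. PHLDA3, a p53-induced competitor of AKT for membrane lipids, fell by 0.40. These 4 stayed below 0 under both control scalings, with SESN1 at -0.37 and -0.26, SESN2 at -0.28 and -0.18, DDIT4 at -0.24 and -0.13, and PHLDA3 at -0.18 and -0.07. The other genes past the threshold were named after their values were seen. TRIB2 and TRIB3, pseudokinases, rose by 0.38 and 0.21, and TRIB1 was at -0.15, which turned to 0.07 and 0.17 under the control scalings and missed the threshold in 5 of the 6 fits that left out an array (adjusted p up to 0.0825). The second probe sets of TRIB2 and TRIB1 were at 0.08 and 0.12 and did not pass.

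**Figure D3:**
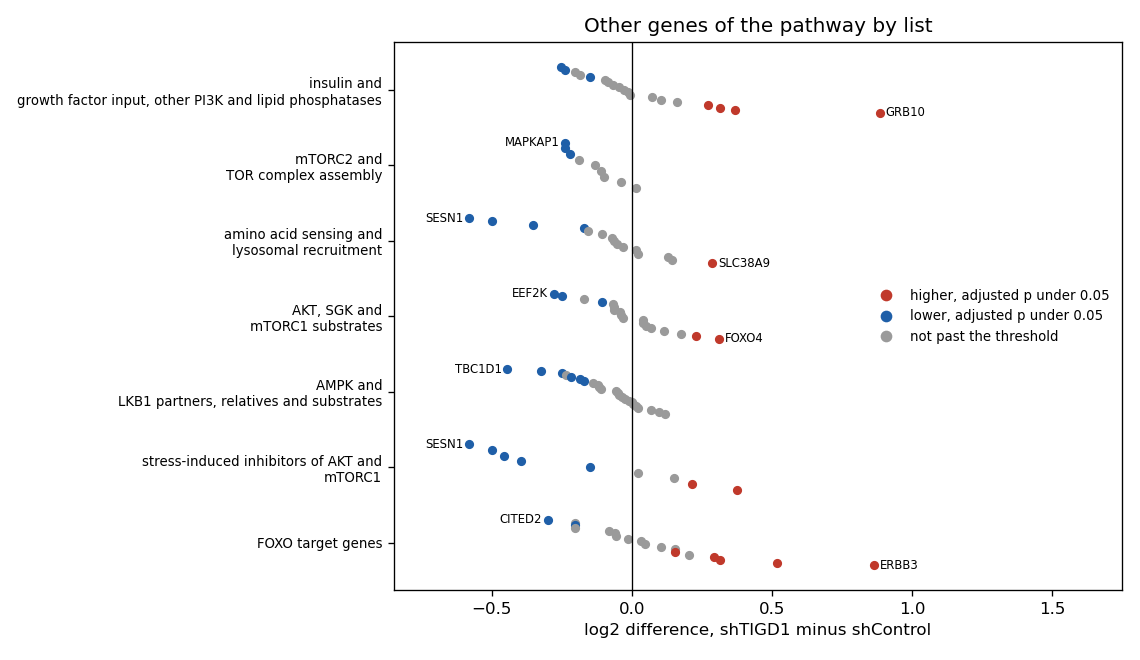
The x axis gives the log2 difference between shTIGD1 and shControl (3 arrays each) for 107 genes of the pathway outside the 49, in 7 lists on the y axis. Each point is a gene, red or blue where the limma adjusted p was under 0.05; in the list of stress-induced inhibitors 5 of 9 points are blue, and in the list of AMPK and LKB1 partners 6 of 24 are blue and 0 red.

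The LKB1 complex and AMPK held the largest rise among the 49 genes. LKB1 is active in a complex with the pseudokinase STRAD and the scaffold MO25, and AMPK is a trimer of a catalytic alpha, a scaffolding beta and a nucleotide-binding gamma subunit. Of these 9 genes, 4 rose, 3 fell and 2 did not pass, by their brightest probe sets, where 9.81% of all genes rose and 14.0% fell. The 250 bases before the outermost start site of 4 of them that passed, and of LAMTOR4, are shown because these genes moved in different directions (GRCh38.p14, RefSeq). Capitals mark matches to the 9 motifs searched on both strands, which were the CRE with the letters TGACGTCA, the AP-1 element with TGANTCA, the E-box of lysosomal genes with CACGTG, the FOXO element with GTAAACA, the CCAAT box with CCAAT, the GC box with GGGCGG, the ETS element with CCGGAAG, the TATA box with TATAAA and the NRF1 element by its name.
STK11 (chr19:1205528-1205777, plus strand): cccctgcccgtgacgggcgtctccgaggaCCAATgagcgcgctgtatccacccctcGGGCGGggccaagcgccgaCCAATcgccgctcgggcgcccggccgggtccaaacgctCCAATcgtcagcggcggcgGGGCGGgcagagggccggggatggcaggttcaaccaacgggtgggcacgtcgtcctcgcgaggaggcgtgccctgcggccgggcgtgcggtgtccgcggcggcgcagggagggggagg
CAB39 (chr2:230712592-230712841, plus strand): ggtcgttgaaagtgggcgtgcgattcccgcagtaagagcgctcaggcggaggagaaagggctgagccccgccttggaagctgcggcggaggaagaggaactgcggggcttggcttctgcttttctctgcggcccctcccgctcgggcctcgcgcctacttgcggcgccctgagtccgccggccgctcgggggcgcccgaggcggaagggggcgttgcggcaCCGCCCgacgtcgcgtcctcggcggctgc
PRKAA2 (chr1:56645064-56645313, plus strand): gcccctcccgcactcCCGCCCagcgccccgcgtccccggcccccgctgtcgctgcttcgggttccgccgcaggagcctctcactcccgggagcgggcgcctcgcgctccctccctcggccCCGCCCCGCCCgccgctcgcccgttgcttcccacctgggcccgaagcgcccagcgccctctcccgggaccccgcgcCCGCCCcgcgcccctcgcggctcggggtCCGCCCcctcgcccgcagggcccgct
PRKAG2 (chr7:151877116-151877365, minus strand): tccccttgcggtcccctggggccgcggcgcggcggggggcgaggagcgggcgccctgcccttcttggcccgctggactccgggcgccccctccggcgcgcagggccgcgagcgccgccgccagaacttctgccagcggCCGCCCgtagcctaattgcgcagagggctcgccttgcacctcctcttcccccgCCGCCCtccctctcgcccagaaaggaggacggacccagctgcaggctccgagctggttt
LAMTOR4 (chr7:100148668-100148917, plus strand): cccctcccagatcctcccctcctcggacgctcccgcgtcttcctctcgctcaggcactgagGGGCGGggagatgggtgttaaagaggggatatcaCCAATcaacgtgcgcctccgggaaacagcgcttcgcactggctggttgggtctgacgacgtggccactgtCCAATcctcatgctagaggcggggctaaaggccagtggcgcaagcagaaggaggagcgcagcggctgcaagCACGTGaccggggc
G and C made up 64.4% to 83.2% of the letters of these 5 windows, beside a median of 58.0% over all windows. The GC box was present in all 5 windows and in 42.6% of 35116 windows of this length, which were not matched for that content. PRKAA2 had 5 matches to it, of which 1 pair overlapped, PRKAG2 2, STK11 2, CAB39 1 and LAMTOR4 1. CCAAT occurred 3 times before STK11 and 2 times before LAMTOR4 (32.0% of windows), and CACGTG once before LAMTOR4 (6.34%). The letters GTAAACA were in none of the 5 (2.98%). These matches describe the letters only. The table of windows held 44 of the listed genes.

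STK11 read 8.09, 8.24 and 8.16 in shControl and 7.80, 7.78 and 7.89 in shTIGD1. It fell by 0.34 (SE 0.05, adjusted p = 0.00612) with its single probe set, which became -0.13 (adjusted p = 0.0623) with hybridization and -0.02 with poly-A controls. STRADA read 8.10, 8.05 and 7.96 against 7.80, 7.74 and 7.82, a fall of 0.25 (SE 0.05, adjusted p = 0.0137), which turned to a value of 0.07 with poly-A controls. Both genes were lower on every shTIGD1 array. All 3 STRADA probe sets were below 0, but only the brightest passed. CAB39, the gene of MO25, read 10.07, 10.05 and 10.07 against 10.17, 10.16 and 10.24 with its brightest probe set, a rise of 0.13 (SE 0.04, adjusted p = 0.0457) that missed the threshold when any single array was left out (0.10 to 0.14, adjusted p between 0.0702 and 0.129). Its dimmer probe sets showed larger rises, of 0.58 and 0.73, which both passed over all probe sets (adjusted p = 0.00110 and 0.00340).

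PRKAA2, the alpha2 catalytic subunit of AMPK, had the largest change of the 49 genes and was the only one past 1.5-fold. Its brightest probe set was at 6.54, 6.78 and 6.68 in shControl and 7.29, 7.40 and 7.36 in shTIGD1. Group means came to 6.67 ± 0.12 and 7.35 ± 0.06 (SD, n = 3 per group), a rise of 0.68 (95% interval 0.52 to 0.84, adjusted p = 0.00160). All 4 PRKAA2 probe sets were above 0 and 3 passed. The dimmest of those that passed had means of 3.79 in shControl and 4.10 in shTIGD1, below the background controls (4.42 to 4.54). The third brightest did not pass (0.22, limma adjusted p = 0.067 over all probe sets). Among the 18 alternative settings tried it kept its direction and its side of the threshold in each. PRKAA1, the alpha1 subunit, read 7.81, 7.91 and 7.78 against 8.16, 8.22 and 8.22, a rise of 0.37 (SE 0.05, adjusted p = 0.00321). Of its 4 probe sets, 3 passed as higher and the dimmest, near background, was at -0.21. The rise of PRKAA2 exceeded that of PRKAA1 by 0.31 (exact permutation test, two-sided, p = 0.1, 0.136 adjusted over 15 pairs).

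Among the other AMPK subunits, gamma2 rose and beta1 was mixed. PRKAG2 read 9.08, 9.05 and 9.08 in shControl and 9.44, 9.41 and 9.51 in shTIGD1. It rose by 0.38 (SE 0.04, adjusted p = 0.00175), and all 4 of its probe sets passed as higher (0.28 to 0.52). PRKAG1, the gamma1 subunit, was at -0.08 (interval -0.16 to -0.01, adjusted p = 0.106). The change of PRKAG2 minus that of PRKAG1 was 0.46 (exact permutation test, two-sided, p = 0.1, 0.136 adjusted over 15 pairs). PRKAB1, the beta1 subunit, read 9.28, 9.25 and 9.36 against 9.08, 9.05 and 9.11 with its brightest probe set, a difference of -0.22 (SE 0.04, adjusted p = 0.0127). The other probe sets both passed over all probe sets, on either side of 0 (-0.23 and 0.18). The one at 0.18 had a limma adjusted p of 0.046 there, and of 0.0533 in the fit with the second brightest probe sets. The PRKAB1 value also turned to 0.10 with poly-A controls, so no direction is given for it. It is the only 1 of the 18 genes with a probe set past the threshold on the opposite side. PRKAB2, the beta2 subunit, was at 0.06 (adjusted p = 0.467), although 1 dimmer probe set passed as higher (0.20).

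**Figure D4:**
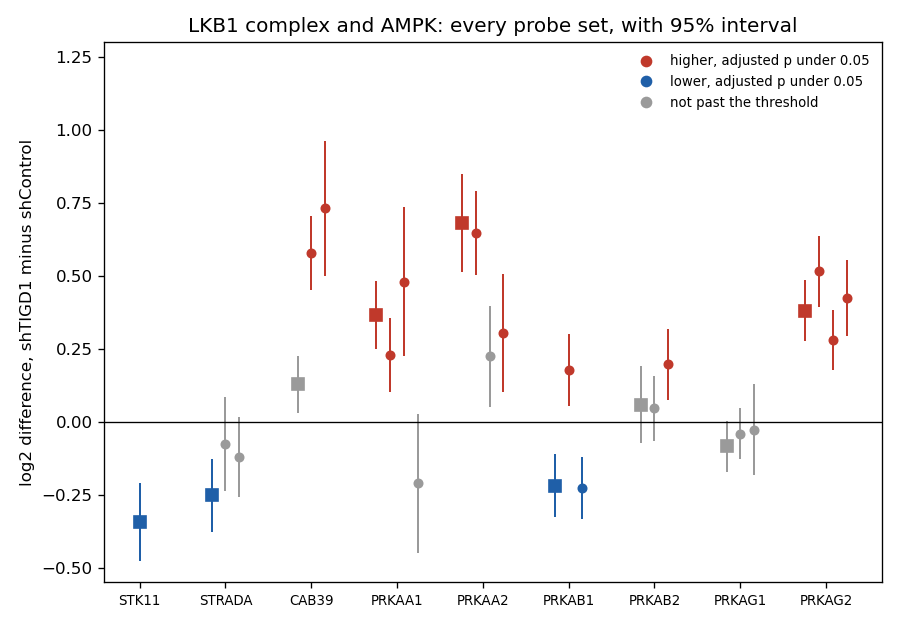
The y axis gives the log2 difference between shTIGD1 and shControl (3 arrays each) for every probe set of the LKB1 complex and AMPK genes on the x axis, with 95% intervals; squares are the brightest probe set of a gene and circles the others, and p-values are adjusted over all probe sets. All 4 PRKAG2 probe sets are red, PRKAB1 has red and blue ones, and the CAB39 square lies below its circles.

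Of 24 measured partners, relatives and substrates of AMPK and LKB1, 0 passed as higher in limma and 6 as lower, or 25% in all, near the 23.8% of all genes and below the 31.6% of those of at least 5. The median was -0.05, beside -0.04 for all genes; 7 had an unadjusted p under 0.05. TBC1D1, a regulator of glucose transporter traffic, fell most, from 7.95, 7.95 and 7.91 to 7.52, 7.40 and 7.54 (-0.45, SE 0.05, adjusted p = 0.00193). MARK2, a polarity kinase that LKB1 activates, fell by 0.33. CAMKK2, the calcium-dependent kinase that activates AMPK without LKB1, fell by 0.25, and ACACA, the acetyl-CoA carboxylase that AMPK inhibits, by 0.22. Only the brightest of 2 MARK2 and of 3 ACACA probe sets passed, with the others between -0.12 and -0.02. CAMKK2 and ACACA turned to values of 0.07 and 0.10 with poly-A controls, while TBC1D1 stayed at -0.12 and MARK2 at -0.0046. With hybridization controls 12 of the 24 passed as higher and 1 as lower, when 50.9% and 2.06% of all genes did. With poly-A controls the counts were 14 and 0, when 68.2% and 0.532% of all genes passed. With the second brightest probe set they were 1 and 5, when 9.87% and 9.52% did.

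Receptors and adaptors upstream of PI3K were mixed. Of 19 measured genes of insulin and growth factor input, other PI3K classes and lipid phosphatases, 4 passed as higher and 3 as lower (median -0.03). The share of 36.8% stood beside 23.8% of all genes and 31.6% of those of at least 5. IGF1R rose by 0.37 with its brightest probe set, from 9.73, 9.81 and 9.89 to 10.13, 10.29 and 10.13, while its other 6 probe sets did not pass. The docking protein gene GAB2 rose by 0.27 with its brightest probe set, while its other one was at -0.08 and did not pass. GRB10, an inhibitory adaptor of the insulin receptor, was at 0.89 with its brightest probe set and at -0.24 and -0.26 with its others, all past the threshold, so no direction is given for it. GAB1, INPP5E and GRB14, named after their values were seen, were at -0.25, -0.24 and -0.15, and turned to 0.07, 0.08 and 0.17 with poly-A controls. Of their 8, 3 and 2 probe sets, respectively, only the brightest passed. GRB14 missed the threshold in 4 of the 6 fits that left out an array (adjusted p up to 0.0724).

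Beyond the brightest probe sets, the 49 genes had 176 probe sets in all, of which 35 passed as higher and 24 as lower (33.5% in all, where 22.5% of all probe sets did, 11.7% as higher and 10.8% as lower). Of the 31 genes that did not pass, 13 had a dimmer probe set that did, 10 only as higher and 3 only as lower. The matching share over all genes was not computed. The brightest probe sets of those 31 differed by between -0.15 and 0.16, and their 95% intervals lay between -0.27 and 0.31.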

How the data were processed

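Total RNA of 6 A549 samples was turned into biotinylated cRNA with a kit that primes at the 3′ end and read on Affymetrix arrays of a single colour, as the labels' protocols state. The submitters' processing notes name GCOS and RMA, whose versions the sources used here do not give. The authors deposited a log2 signal for each probe set; base 2 is inferred from their range. RMA makes array distributions alike (medians 6.27 to 6.28), so a shift common to most genes is removed before deposit.

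Of 49395 probe sets, 102 were controls, 45278 had 1 gene symbol, 1333 several and 2682 none. Probe sets with several were not used, 7 of them assigned to FOXO3 or SGK3 with another gene. Each gene took its probe set with the highest mean, which gave 18244 genes, and signals were not compared between genes. The test was that of limma 3.58.1 (lmFit, eBayes; R 4.3.3), two-sided, adjusted by Benjamini-Hochberg over the 18244 genes, with a call under 0.05; it was tested on simulated data. The members and lists were chosen with earlier results of these data known. Every one of the 49 genes could be named, and of each other list up to 4 genes with the largest change past the threshold; others are said to be named after their values were seen. Alternatives were other probe set choices, scalings, filters, fits and leaving out each array. Motifs were searched with Python 3.11.15.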

Additional observations from a re-analysis of the deposited data

How the results depend on the processing

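As reported, 10 of the 49 genes were higher and 8 lower. Leaving out single arrays gave 8 to 9 higher, when 6.45% to 8.08% of all genes were, and 6 to 9 lower, when 8.57% to 10.5% were. The second brightest probe set gave 13 higher and 4 lower, when 9.87% and 9.52% of all genes were. These were in part other genes. Of the 18 calls as reported, 9 stayed in the same direction, among them 4 genes with a single probe set, which this choice leaves unchanged. The lower count became 13 with trend and robust settings of eBayes, when 18.4% of all genes were lower. Against a 1.2-fold null (treat), 1 was higher, PRKAA2, and 0 lower; the 1.2-fold null calls 1.44% of all genes. With hybridization controls 36 were higher and 1 lower, when 50.9% and 2.06% of all genes were, and with poly-A controls 39 and 0, when 68.2% and 0.532% were. The replicate number as a block left 7 higher and 5 lower, when 6.02% and 7.09% of all genes were, while calls over all genes went from 4340 to 2391. Same-numbered arrays did not deviate together (correlations of -0.032, -0.133 and -0.094 over genes). With 3 arrays a group these values cannot settle whether the numbers pair the samples. The block ended the calls of CAB39, FOXO1, LAMTOR5, MTOR, RPS6KB2 and STRADA. Values past the threshold in at least 1 of the settings compared that changed sign were, with the second brightest probe set, IRS1 (-0.15), PDPK1 (0.22), PHLPP2 (-0.019) and PRKAB1 (0.18). For the control scalings only the 18 genes past the threshold as reported, and TIGD1, were compared in this way. Of these, RPS6KB2 (0.0668) and TIGD1 (0.16) changed sign with hybridization controls. With poly-A controls AKT2 (0.0368), FOXO1 (0.0713), NPRL3 (0.0211), PRKAB1 (0.10), RPS6KB2 (0.17), STRADA (0.0696) and TIGD1 (0.27) did. Another 23 sign changes were of values that passed in neither setting, and these exclude the control scalings, under which all 15 uncalled genes below 0 turned positive with either control. The scalings add 1 value to every gene by construction; for the other changes the cause was not tested. All 49 genes had a mean of at least 5 in the higher group, above the background control probe sets (4.42 to 4.54), and 3 arrays a group limit the precision of each value.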
